A study of Rattus norvegicus with 17 samples.

Results

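Chemokines, interleukins and members of the tumour necrosis factor (TNF) family, with their receptors, were described in 17 samples of rat vessel endothelium taken after arteriovenous fistula or ligation surgery. The set holds each probe with a value in the deposited table whose accession maps to a rat gene symbol starting Ccl, Ccr, Cxcl, Cxcr, Tnfsf, Tnfrsf, or Il followed by a digit, without Cxcl12 and Cxcr4. It came to 26 probe spots of 10000, which measured 24 genes of the 2878 with a symbol. Of the 92 genes with such symbols that have a probe on the array, 68 have no value in the table and were not analysed here. The 24 are 3 CC chemokines, 2 CXC chemokines, 1 chemokine receptor, 3 interleukins with an antagonist counted among them, 6 interleukin receptors, 3 TNF ligands and 6 TNF receptors.

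Fistula surgery connects the right superficial epigastric vein with the common femoral artery and models the vascular access of kidney dialysis. Endothelial cells were taken from the vessel lumen by laser capture 13 to 14 days later, and each sample was hybridised to 1 single-colour array labelled with Cy5. A side branch of that vein that had narrowed after fistula surgery is called the stenotic side branch (n = 3). The NIH vein (n = 5) is the main vein under arterial flow after fistula surgery, with neointimal hyperplasia (NIH), a thickening of the inner wall. The femoral artery (n = 3) comes from the fistula and has no lesion, and the venous-flow vein (n = 6) is the part of the vein beyond a ligation, with venous flow, no lesion and ligation surgery named in its label. The labels give no strain, sex or age. Each sample pools several captures, and the design text names 6 rats. If 6 is the total, some of the 17 samples share a rat. The labels do not tie samples to rats, and the 17 titles differ in number, so sharing is not settled. The p-values below treat samples as separate, and are too small where samples of 1 group share a rat.

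The deposited scanner output and the deposited value table put 12 of the 17 arrays under different samples, and only the 5 NIH vein arrays have the same sample in both. Scanner arrays of the stenotic side branch are venous-flow veins 1 to 3 in the table, and those of the femoral artery are venous-flow veins 4 to 6. Scanner arrays 1, 5 and 6 of the venous-flow vein are stenotic side branches 1 to 3 in the table, and scanner arrays 2, 3 and 4 are femoral arteries 1 to 3. The sources used here do not settle which is right. Values below carry the samples of the scanner output, and those of the value table follow. NIH vein against all 12 other arrays is the comparison that holds the same arrays on each side in both. On 11 arrays each background value repeats, to within 0.0051 intensity units, the average of 2 further arrays; the 5 NIH veins and stenotic side branch 1 have a background of their own, so that filling and vessel type cannot be told apart. The median signal of an array exceeded its background by 28.5 to 80.9 intensity units, and precision is limited by how many arrays there are. Of 15 endothelial markers, 1 was measured (Kdr, a receptor for vascular endothelial growth factor), too few to check the cell type.

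Chemokines are small secreted proteins that guide leukocytes by binding receptors on their surface, and endothelium both makes and presents them. Interleukin 1 beta and TNF act on receptors of endothelial cells and switch on adhesion molecules and chemokines, largely through the transcription factor NF-kB. TNF receptor 1 is found on most cell types and can signal to inflammation or cell death, while TNF receptor 2 is found mainly on immune and endothelial cells. Il1rl1 encodes ST2, the receptor for interleukin 33, an alarm signal released from damaged cells.

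Cxcl1 and Cxcl2 encode neutrophil-attracting chemokines that lie next to each other with 0 genes between them in the RefSeq gene table. Their promoters are shown because both genes were highest on the same pair of arrays, as described below. Each window runs from 250 bases before the start of the gene to 50 after it, from RefSeq on GRCr8. The Cxcl1 window is chr14:17479272-17479571 on the minus strand, with capitals from -84 to -74, and the Cxcl2 window is chr14:17467206-17467505 on the minus strand, with capitals from -74 to -64. Capitals mark the NF-kB consensus, searched on both strands, whose 2 overlapping matches in each window are shown as 1 run:
Cxcl1: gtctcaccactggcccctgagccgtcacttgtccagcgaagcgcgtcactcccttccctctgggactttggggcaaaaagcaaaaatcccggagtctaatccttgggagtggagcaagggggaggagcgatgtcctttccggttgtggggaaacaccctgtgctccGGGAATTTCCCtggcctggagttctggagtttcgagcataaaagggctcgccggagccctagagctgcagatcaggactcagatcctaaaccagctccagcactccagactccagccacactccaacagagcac
Cxcl2: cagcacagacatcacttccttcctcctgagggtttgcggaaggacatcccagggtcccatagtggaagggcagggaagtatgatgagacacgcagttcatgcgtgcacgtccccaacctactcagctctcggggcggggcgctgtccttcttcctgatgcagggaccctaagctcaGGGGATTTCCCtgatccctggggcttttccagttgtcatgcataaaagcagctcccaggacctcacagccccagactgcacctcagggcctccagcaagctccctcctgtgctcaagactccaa
The consensus occurs in 7.51% of 33469 rat promoter windows of this length. Of the 16 genes of the set with a window in the reference table, 2 hold it, Cxcl1 and Cxcl2. TATAAA, also searched on both strands, occurs in 14.2% of all windows and in those of 6 genes of the set. A match is a sequence description and was not tested for binding.

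Several genes of the set were dim. Levels are log2 intensities after background correction, on which the correction sets a floor of 5.65, and a value within 0.5 of it is called near the floor. All 4 group means were near the floor for 5 of the 24 genes (20.8%), as they were for 33.5% of all 9446 features on the array. These genes were Il1rl2, Il1rapl1, Tnfsf12, Tnfsf13 and Tnfrsf9. Il1rl2 is the receptor for interleukin 36, and Il1rapl1 is a relative of the interleukin 1 receptor accessory protein. Tnfsf12 (TWEAK) and Tnfsf13 (APRIL) are TNF ligands, and Tnfrsf9, also called 4-1BB, is a TNF family receptor found on T cells. Il1rapl1, Il1rl2 and Tnfsf12 were near the floor on all 17 arrays. Group means ran from 5.73 to 5.86 for Il1rapl1 and from 5.83 to 5.91 for Il1rl2. Another 10 genes had 1 to 3 group means near the floor, and 9 had none. Only Tnfrsf1a exceeded the limit on every array. Ranges over the 17 arrays were wider than 2 on the log2 scale for 10 genes and narrower than 1 for 8.

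**Figure D1:**
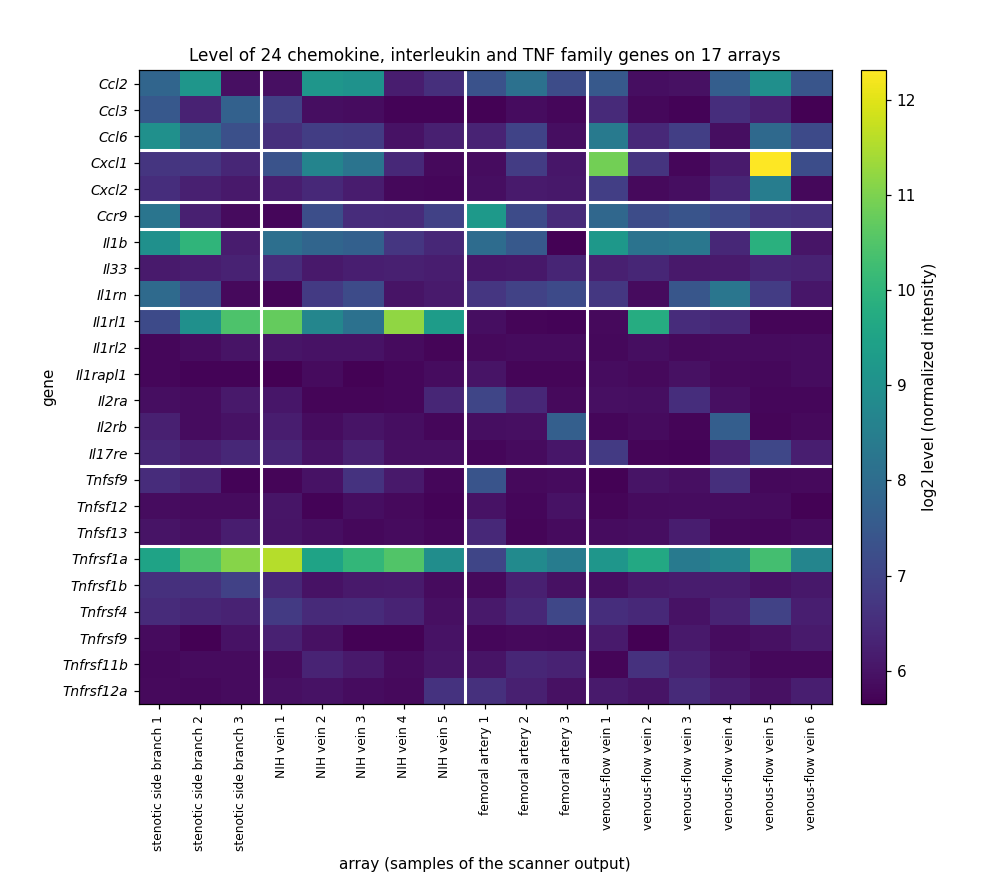
Log2 levels (colour) of the 24 genes (rows, grouped by class between white lines) on each of the 17 arrays (columns, under the samples of the scanner output). Il1rl1 and Tnfrsf1a are bright on the NIH vein arrays and also on stenotic side branch arrays. Cxcl1 is brightest on venous-flow veins 5 and 1, and 5 of the 24 rows have all 4 group means near the floor of 5.65.

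Il1rl1 had the largest difference of the set between NIH vein and the rest. It reached 10.74, 8.71, 8.14, 11.21 and 9.34 in the NIH veins (probe A_43_P11672). In the stenotic side branches it stood at 7.16, 8.98 and 10.45, in the femoral arteries at 5.90, 5.75 and 5.72, and in the venous-flow veins between 5.74 and 9.77 with a median of 6.11. All 5 NIH veins were thus well above the floor, all femoral arteries were near it, and 1 venous-flow vein, number 2, stood far above the other 5. Of the 12 other arrays, 3 exceeded the lowest NIH vein, namely venous-flow vein 2 and stenotic side branches 2 and 3. The mean was 9.63 ± 1.31 in NIH vein (SD, n = 5) and 6.99 ± 1.74 on the other 12 arrays (SD, n = 12). That difference of 2.64 (SE 0.83) had an unadjusted p of 0.00566 and an adjusted p of 0.314 over all 9446 features, so it did not pass the threshold of 0.05. In the value table the same comparison gave 9.56 against 6.47, a difference of 3.08 (SE 0.95, adjusted p = 0.311).

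Against the femoral artery alone, Il1rl1 rose in the NIH vein. The means were 9.63 ± 1.31 in NIH vein (SD, n = 5) and 5.79 ± 0.10 in femoral artery (SD, n = 3), a log2 difference of 3.84 (SE 0.95, adjusted p = 0.0492). No fold is given, because the femoral artery mean is near the floor and its level depends on the offset of the correction. The call sits just inside the threshold, and under the samples of the value table the difference was 2.34 (SE 1.26, adjusted p = 0.50), since venous-flow vein 2 of the scanner output is femoral artery 1 there. Against the venous-flow vein the difference was 2.97 (SE 0.79, adjusted p = 0.127) in the scanner output, with means of 9.63 in NIH vein and 6.66 in venous-flow vein. Without venous-flow vein 2 it was 3.59 (adjusted p = 0.0333). The value table gave 2.70 (SE 1.05, adjusted p = 0.696).

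The place of the stenotic side branch in the order of Il1rl1 levels turned on the assignment. In the scanner output its mean of 8.87 ± 1.65 (SD, n = 3) was next to that of the NIH vein, with a difference of -0.76 (SE 0.95) from it. Under the table's assignment, the 3 stenotic arrays had 5.04, 4.90 and 4.91 in the table's own log2 values, the lowest group mean there (4.95). The difference between stenotic side branch and NIH vein was then -4.61 (SE 1.26, adjusted p = 0.217). Il33, the ligand of this receptor, was dim and showed none of this pattern: it lay between 6.05 and 6.49 on all 17 arrays. It was near the floor on 6 of them, so a change in Il33 could be missed. Its mean was 6.25 ± 0.14 in NIH vein (SD, n = 5) and 6.21 ± 0.11 on the other arrays (SD, n = 12). A second Il33 probe lay between 5.66 and 6.28. Il1rl2, which adjoins Il1rl1 with 0 genes between them in the RefSeq table, never left the floor, with a highest level of 6.02.

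**Figure D2:**
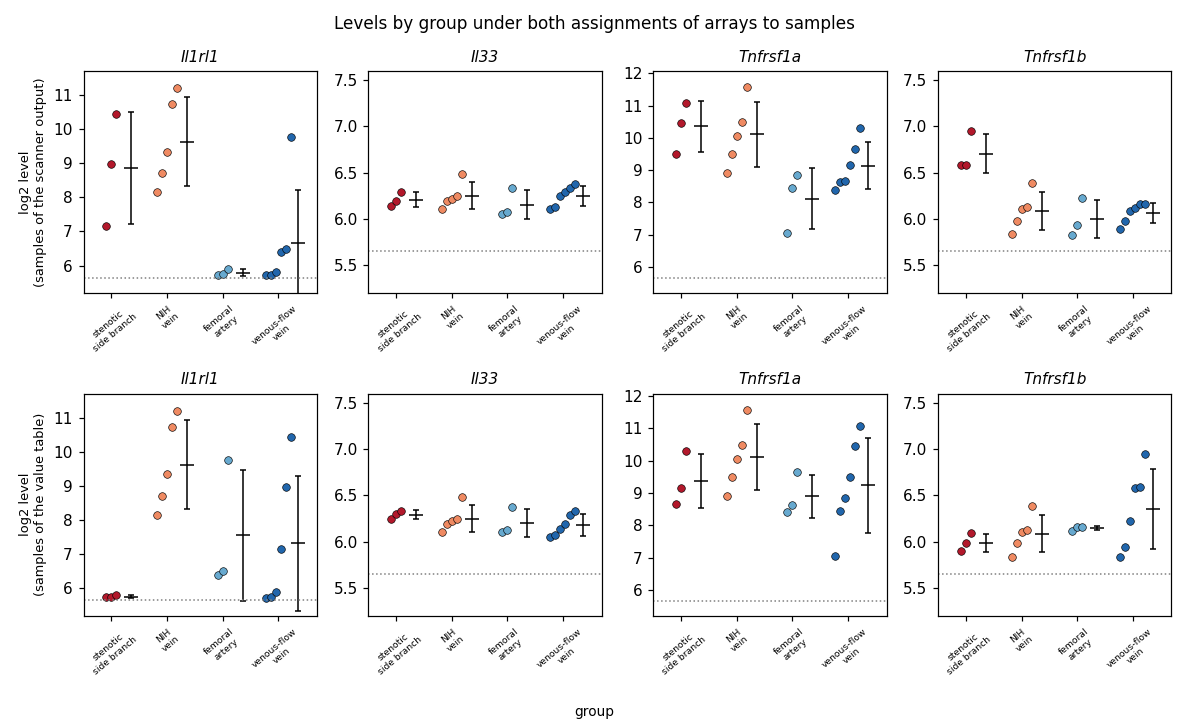
Log2 levels of Il1rl1, its ligand Il33, Tnfrsf1a and Tnfrsf1b on each array (points) by group, with mean and SD beside them, for scanner levels under the samples of the scanner output (upper row) and under those of the value table (lower row). The dotted line is the floor of 5.65. NIH vein points are the same in both rows, and the stenotic Il1rl1 points lie at 7.16 and above in the upper row and at 5.82 and below in the lower row.

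The TNF receptors differed from each other in level and in pattern. Tnfrsf1a, which encodes TNF receptor 1, reached 11.58, 9.51, 10.07, 10.50 and 8.91 in the NIH veins. In the stenotic side branches it had 9.50, 10.47 and 11.09, in the femoral arteries 7.04, 8.85 and 8.46, and in the venous-flow veins 8.40 to 10.31 with a median of 8.91. Under the samples of the scanner output every stenotic array and every NIH array exceeded every femoral artery, though NIH vein only by 8.91 against 8.85. The venous-flow veins overlapped with all groups. How many features of the array show such a separation was not counted. The log2 difference between NIH vein (10.11 ± 1.01, SD, n = 5) and the other 12 arrays (9.19 ± 1.10, SD, n = 12) was 0.93 (SE 0.55, adjusted p = 0.533). Between NIH vein and femoral artery it was 2.00 (SE 0.60, adjusted p = 0.0761), with means of 10.11 and 8.12. Between stenotic side branch and femoral artery it was 2.24 (SE 0.67, adjusted p = 0.0916), with means of 10.35 and 8.12. None of these passed the threshold. By limma, 25.1% and 23.1% of all features had an unadjusted p under 0.05 in these 2 comparisons with the femoral artery. In the value table Tnfrsf1a had no unadjusted p under 0.05 in either of them.

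Tnfrsf1b, which encodes TNF receptor 2, was the other gene of the set to pass a test. Its levels were 6.59, 6.59 and 6.95 in the stenotic side branches and 6.38, 5.98, 6.11, 6.12 and 5.84 in the NIH veins. The femoral arteries had 5.83, 6.23 and 5.94, and the venous-flow veins 5.90 to 6.16 with a median of 6.10. The 3 stenotic arrays were above all other 14 arrays, and the means of the other groups were near the floor. The stenotic mean of 6.71 ± 0.21 (SD, n = 3) was higher than the venous-flow mean of 6.07 ± 0.11 (SD, n = 6) by 0.64 on the log2 scale (SE 0.12, adjusted p = 0.0366). It was higher than the femoral artery mean of 6.00 ± 0.21 (SD, n = 3) by 0.71 (SE 0.14, adjusted p = 0.0273). Against the NIH vein the difference was 0.62 (SE 0.13, adjusted p = 0.142). The same 3 arrays are venous-flow veins in the value table, where the stenotic mean was lower than that of the venous-flow vein by a log2 difference of -0.50 (SE 0.28, adjusted p = 0.825) and than that of the femoral artery by -0.24 (SE 0.32, adjusted p = 1.00).

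Some myeloid markers moved with Tnfrsf1b on these arrays, and others did not. Of 15 listed macrophage and myeloid markers 6 were measured, and 3 of them (Tyrobp, C5ar1 and Lyn) passed in stenotic side branch against venous-flow vein and again against femoral artery. Of all features 0.392% and 1.85% passed in these comparisons. The summed linear level of the 6 was 939 to 2481 in stenotic side branch, 465 to 664 in NIH vein, 560 to 630 in femoral artery and 415 to 762 in venous-flow vein. Under the samples of the value table it was 415 to 514 in stenotic side branch and 560 to 2481 in venous-flow vein. Of the other 3, Cd68 averaged 6.99 in stenotic side branch, 6.66 in NIH vein, 7.23 in femoral artery and 6.95 in venous-flow vein, and Csf1r and Cd14 were near the floor on 15 of 17 arrays each. The summed lymphocyte markers (2 of 16 measured) were 165 to 185 in stenotic side branch, 144 to 179 in NIH vein, 154 to 192 in femoral artery and 139 to 162 in venous-flow vein. The part of such cells in the result was not tested. Of 9 fibroblast markers 4 were measured, and their sum was 9831 to 39392 in NIH vein and 10935 to 38219 in stenotic side branch. In femoral artery it was 722 to 3260 and in venous-flow vein 2364 to 11178. Under the samples of the value table it was 2789 to 9440 in stenotic side branch and 722 to 38219 in venous-flow vein. Most of the sum in NIH vein and stenotic side branch is Col1a2, a collagen chain, with means of 14.28 and 14.39. Col3a1 averaged 9.14 in stenotic side branch, 9.12 in NIH vein, 8.14 in femoral artery and 8.97 in venous-flow vein. Dcn was near the floor on 15 of 17 arrays. In the scanner output Il1rl1 too had its highest group means in NIH vein and stenotic side branch. Within the NIH veins its order differed from that of the sum. It was lowest (8.14) on NIH vein 3, where the sum was highest (39392). Its highest level (11.21) was on NIH vein 4, where the sum was 13459. On stenotic side branches 1 to 3 the sum was 10935, 30193 and 38219, and Il1rl1 rose in the same order. The part of fibroblasts was not tested. Among the fibroblast markers Col1a2 passed in NIH vein against femoral artery by 4.28. Kdr, the measured endothelial marker, passed in stenotic side branch against femoral artery by 1.95 (adjusted p = 0.0468). Fewer cells of a type and less RNA per cell cannot be told apart in these samples.

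The remaining TNF receptors were dim. Tnfrsf4, also called OX40 and found on T cells, lay between 5.92 and 7.06. Its group means were 6.37 in stenotic side branch, 6.39 in NIH vein, 6.52 in femoral artery and 6.39 in venous-flow vein. Those means differed by less than the SD over all 17 arrays (0.30). Tnfrsf9, Tnfrsf11b (osteoprotegerin, a soluble decoy receptor) and Tnfrsf12a (the receptor for TWEAK) ranged over 0.62, 0.86 and 0.82 on the log2 scale. The ligand Tnfsf9, which binds 4-1BB, reached 7.37 on femoral artery 1 and at most 6.62 elsewhere. Tnfsf13, which adjoins Tnfsf12 with 0 genes between, peaked on the same array at 6.42. Group means of Tnfsf9 were 6.17 in stenotic side branch, 6.04 in NIH vein, 6.35 in femoral artery and 5.95 in venous-flow vein. Those of Tnfsf13 were 6.04, 5.86, 6.00 and 5.89 in the same order, and no group stood clear of the others for either ligand.

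The CXC chemokines were set apart by single arrays and not by groups. Cxcl1 (probe A_42_P473398) had 6.68, 6.71 and 6.38 in the stenotic side branches and 7.36, 8.66, 8.20, 6.42 and 5.83 in the NIH veins. The femoral arteries had 5.87, 6.82 and 6.06, and the venous-flow veins 5.78 to 12.31 with a median of 6.93. Venous-flow veins 5 and 1 stood out, at 12.31 and 10.89, above at most 8.66 on the other 15 arrays. In signal above background, Cxcl1 had 26.1 intensity units on femoral artery 1, the dimmest array for it, and 6888 on venous-flow vein 5. Cxcl2 followed at lower levels, with 8.47 and 6.89 on venous-flow veins 5 and 1 and at most 6.52 on the other 15 arrays. Il17re, a receptor subunit for interleukin 17C, also had its highest levels on these arrays, 7.06 and 6.78, against at most 6.38 elsewhere. Its group means were 6.31 in stenotic side branch, 6.08 in NIH vein, 5.89 in femoral artery and 6.30 in venous-flow vein. Those of Cxcl2 were 6.28, 6.07, 6.03 and 6.54 in the same order. Of 11 smooth muscle markers 3 were measured. Tagln and Des were near the floor on 16 and 14 of 17 arrays, so the sum is mainly Tpm2. The summed markers were highest of all 17 arrays on venous-flow vein 5, at 30767. They came to 9729 on venous-flow vein 1, below 16393 on NIH vein 1, where Cxcl1 was 7.36. The linear level of S100a8, the measured neutrophil marker of 8 listed, was 142.6 and 138.9 on venous-flow veins 1 and 5 and 51.0 to 86.1 on the other 4 venous-flow veins. It was higher on stenotic side branches 2 and 1, at 329.6 and 187, where Cxcl1 was 6.71 and 6.68. The part of such cells in the result was not tested.

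In the value table this pair of arrays is stenotic side branches 1 and 2, and the CXC chemokines then separated the groups more. Cxcl1 had 10.87, 12.30 and 6.94 in the stenotic side branches of the table, against 5.12 to 6.46 with a median of 6.07 in its venous-flow veins. All 3 stenotic values were above all 6 venous-flow values. The difference was 4.13 (SE 0.94, unadjusted p = 0.000542, adjusted p = 0.131). Against the femoral artery it was 4.45 (SE 1.09, adjusted p = 0.154) and against the NIH vein 3.09 (SE 0.97, adjusted p = 0.327). For Cxcl2 the stenotic mean in the table was 6.64 ± 1.67 (SD, n = 3), against 5.56 ± 0.30 in venous-flow vein (SD, n = 6), and the difference of 1.08 (SE 0.49) had an adjusted p of 0.784. In the scanner output the Cxcl1 means were 6.59 in stenotic side branch and 8.16 in venous-flow vein, which is the opposite order, and no CXC chemokine passed in either form.

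Among the CC chemokines, Ccl3 and Ccl6 had their highest means in the stenotic side branch of the scanner output. Ccl3, which attracts monocytes and lymphocytes, had 7.49, 6.30 and 7.71 in the stenotic side branches and 6.91, 5.90, 5.87, 5.73 and 5.72 in the NIH veins. It was 5.70, 5.87 and 5.76 in the femoral arteries and 5.66 to 6.52 in the venous-flow veins with a median of 6.03. Outside the stenotic side branch the group means were near the floor, with 1 NIH vein above the other 4. The difference between stenotic side branch and femoral artery was 1.39 (SE 0.37, adjusted p = 0.0679), and that between stenotic side branch and venous-flow vein was 1.10 (SE 0.32, adjusted p = 0.125). The value table gave a stenotic mean of 5.46 ± 0.68 (SD, n = 3) and a venous-flow mean of 5.91 ± 1.19 (SD, n = 6).

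Ccl6, a CC chemokine of rodents made by myeloid cells, had 8.98, 7.95 and 7.28 in the stenotic side branches and 6.54, 6.87, 6.80, 5.98 and 6.23 in the NIH veins. Its levels were 6.30, 6.99 and 5.89 in the femoral arteries and 5.90 to 8.37 in the venous-flow veins, with a median of 7.02. All stenotic arrays exceeded all NIH veins and all femoral arteries, and overlapped with the venous-flow veins. The difference between stenotic side branch and NIH vein was 1.59 (SE 0.50, unadjusted p = 0.00691, adjusted p = 0.731). Under the value table it was 1.60 (SE 0.67, adjusted p = 0.614), on other stenotic arrays, and also did not pass. Ccl3 and Ccl6 have 0 genes between them in the RefSeq table.

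Ccl2, the main monocyte attractant, varied within each group more than between groups. It had 7.83, 9.16 and 5.93 in the stenotic side branches and 5.92, 9.16, 9.05, 6.17 and 6.56 in the NIH veins. The femoral arteries had 7.34, 8.12 and 7.19, and the venous-flow veins 5.89 to 8.97 with a median of 7.46. NIH veins 2 and 3 were high and the other 3 low. The means of 7.64 in stenotic side branch, 7.37 in NIH vein, 7.55 in femoral artery and 7.23 in venous-flow vein lay within 1 SD of each other. Ccr9, the gut-homing receptor of lymphocytes, was highest on femoral artery 1 (9.25) and stenotic side branch 1 (8.23). Its means were 6.77 in stenotic side branch, 6.58 in NIH vein, 7.63 in femoral artery and 7.14 in venous-flow vein. Its NIH vein mean of 6.58 ± 0.56 (SD, n = 5) was below the mean of the other arrays, 7.17 ± 0.94 (SD, n = 12), by a difference of -0.58 (SE 0.44, adjusted p = 0.646).

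**Figure D3:**
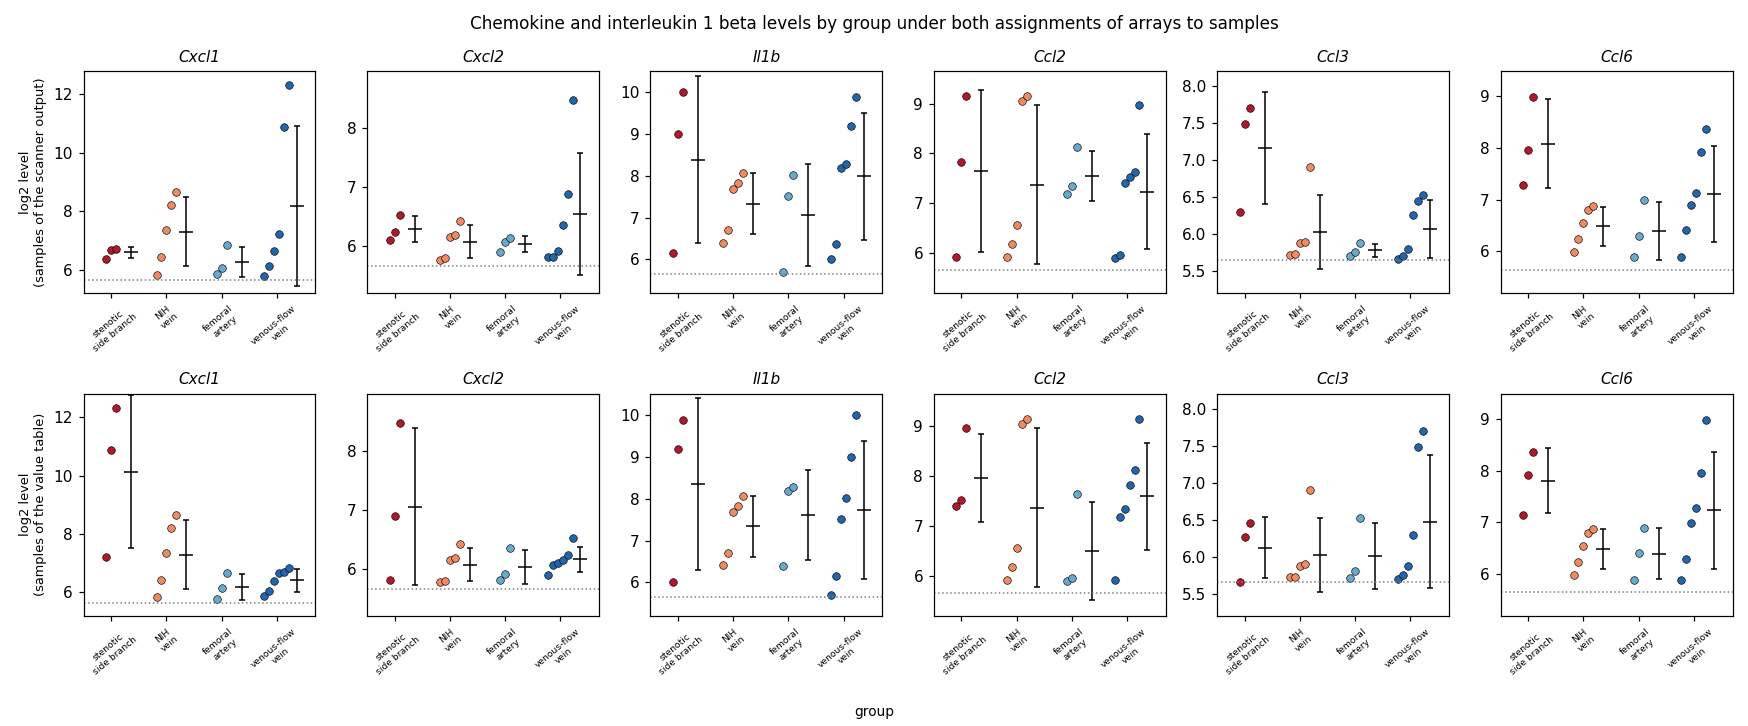
Log2 levels of 5 chemokines and Il1b on each array (points) by group, with mean and SD beside them, for scanner levels under the samples of the scanner output (upper row) and of the value table (lower row). The dotted line is the floor of 5.65. The Cxcl1 points at 12.31 and 10.89 are venous-flow veins above and stenotic side branches below.

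Interleukin 1 beta and its antagonist were spread over all groups. Il1b, the main secreted form of interleukin 1, had 9.0, 10.02 and 6.15 in the stenotic side branches and 8.07, 7.82, 7.69, 6.70 and 6.40 in the NIH veins. The femoral arteries had 8.01, 7.51 and 5.69, and the venous-flow veins 6.02 to 9.88 with a median of 8.23. Each group thus held arrays near 6 and arrays near 8 or above. The NIH vein mean of 7.34 ± 0.74 (SD, n = 5) and that of the other arrays, 7.86 ± 1.52 (SD, n = 12), differed by less than 1 SD. Il1rn, which encodes the natural antagonist of the interleukin 1 receptor, had a mean of 6.37 ± 0.59 in NIH vein (SD, n = 5) and 6.92 ± 0.77 on the other arrays (SD, n = 12), a difference of -0.55 (SE 0.37, adjusted p = 0.593). Within those other arrays its means were 7.01 in stenotic side branch, 6.95 in femoral artery and 6.86 in venous-flow vein. Il2ra, a subunit of the interleukin 2 receptor of T cells, was highest on femoral artery 1 at 7.05, with means of 5.96 in stenotic side branch, 5.93 in NIH vein, 6.42 in femoral artery and 5.97 in venous-flow vein. Il2rb, a further subunit, was near the floor on 13 arrays and reached 7.67 on femoral artery 3 and 7.63 on venous-flow vein 4.

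Counted over the set, NIH vein against the 12 other arrays called 0 of 24 genes by limma at an adjusted p under 0.05, against 0.0953% of all 9446 features. At an unadjusted p under 0.05 it was 1 gene, Il1rl1, against 12.7% of all features. The median log2 difference over the set was -0.06, against 0.01 over all features, and 7 of 24 genes had a higher mean in NIH vein. The value table called 0 as well, against 0.0741% of features, with 1 gene at an unadjusted p under 0.05 against 12.9% and again 7 genes higher. The genes after Il1rl1 and Tnfrsf1a in order of p were Ccl6, with -0.68 (SE 0.44), Il1rn and Ccr9, each lower in NIH vein without passing. Cxcl2 (-0.28), Il2ra (-0.15), Tnfsf13 (-0.10), Il1rapl1 (-0.05) and Il1rl2 (0.06) differed by under 0.3.

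**Figure D4:**
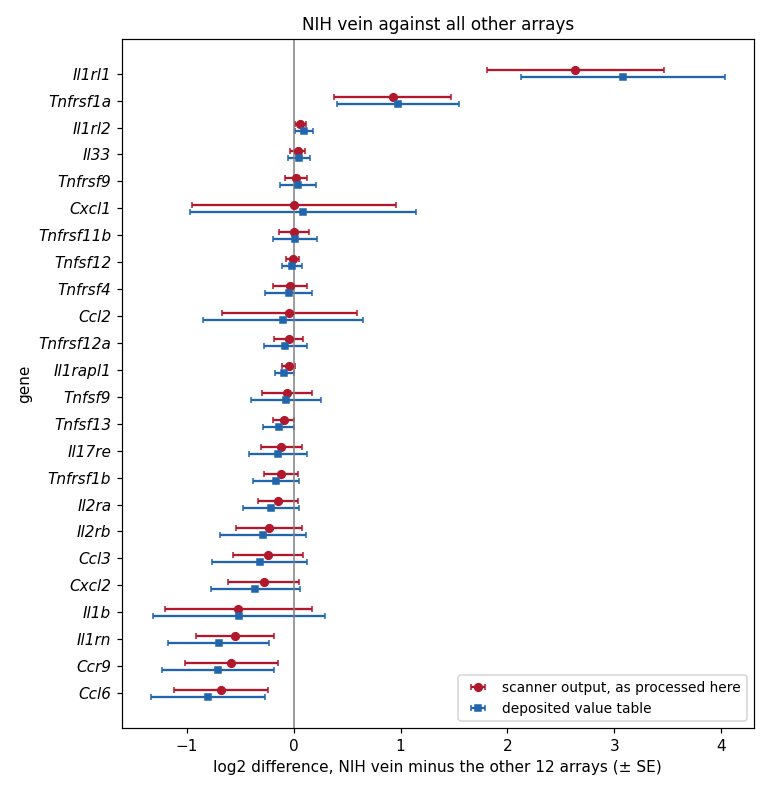
Log2 difference of each of the 24 genes (rows, in order of size) between NIH vein and the other 12 arrays, with SE, from the scanner output (circles) and the deposited value table (squares). Il1rl1 stands apart at 2.64 and 3.08, Tnfrsf1a follows at 0.93 in the scanner output, and most others lie close to 0.

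Of the pairwise comparisons, the calls fell in those of NIH vein and stenotic side branch with the femoral artery and in that of stenotic side branch with the ligated, venous-flow vein. These comparisons share groups, so that their values are not independent. Stenotic side branch against venous-flow vein called 1 gene (Tnfrsf1b), against 0.392% of all features, and 3 genes had an unadjusted p under 0.05, against 17.1%. NIH vein against femoral artery called 1 gene (Il1rl1), against 2.5% of all features, with 2 genes at an unadjusted p under 0.05, against 25.1%. Stenotic side branch against femoral artery called 1 gene (Tnfrsf1b), against 1.85%, with 6 genes at an unadjusted p under 0.05, against 23.1%. The share of the set at an unadjusted p under 0.05 was 12.5%, 8.33% and 25% in these comparisons, below, below and near the share of all features.

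The other pairwise comparisons called 0 genes by limma in the scanner output. NIH vein against venous-flow vein called 0, against 0.0318% of features, with 1 gene (Il1rl1) at an unadjusted p under 0.05 against 16.4%. Stenotic side branch against NIH vein called 0, against 0.0635%, with 3 genes at an unadjusted p under 0.05 (Tnfrsf1b, Ccl3 and Ccl6) against 3.56% of features, all higher in the stenotic side branch. Femoral artery against venous-flow vein called 0, against 0%, with 0 genes at an unadjusted p under 0.05 against 4.91%. Under the deposited value table, limma called 0 of 24 genes in each of the 6 pairwise comparisons. In stenotic side branch against NIH vein the called features were 0.286%, and 5 genes had an unadjusted p under 0.05 against 7.25% of features. In stenotic side branch against femoral artery the shares were 0.201% and 4.46%, with 5 genes at an unadjusted p under 0.05. These were Cxcl1, Cxcl2, Il17re and Ccl6 in both, each higher in the stenotic side branch, with Il1rl1 in the comparison with NIH vein and Tnfrsf11b in that with femoral artery, each lower. In stenotic side branch against venous-flow vein the shares were 0.212% and 6.3%, with 3 genes (Cxcl1, Cxcl2 and Il17re). NIH vein against venous-flow vein had 0% and 6.34% of features, with 1 gene (Il1rl1). NIH vein against femoral artery had 0% and 11%, with 0 genes, and femoral artery against venous-flow vein 0% and 1.58%, with 0 genes.

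Medians over the set stayed close to 0. They were -0.04 in NIH vein against venous-flow vein (0.03 over all features) and 0.03 in stenotic side branch against venous-flow vein (0.02 over all features). In stenotic side branch against NIH vein the median was 0.11, against -0.00 over all features, and 15 of 24 genes were higher. In the comparisons with the femoral artery the medians were -0.02 for NIH vein (0.02 over all features) and 0.06 for stenotic side branch (0.00 over all features), and femoral artery against venous-flow vein gave -0.02 (0.02 over all features). No median over the set differed from 0 by more than 0.11 in the scanner output.

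Genes that act with the set were read from a list of 125 (other chemokine receptors and ligands, signalling partners, kinases and transcription factors), of which 28 were measured. In NIH vein against the 12 other arrays 0 passed in either direction, and 15 of 28 had a higher mean with a median of 0.00. In stenotic side branch against venous-flow vein 1 passed, higher, and 0 passed lower, against 0.392% of all features. A higher mean was found for 18 of 28. The gene that passed was Ptpn6, a phosphatase of blood cells that damps cytokine receptor signalling. Its mean was 7.03 in stenotic side branch and 5.98 in venous-flow vein, a difference of 1.05 (SE 0.16, adjusted p = 0.00979), and it passed against femoral artery as well, by 0.92 (SE 0.19, adjusted p = 0.0281). In the value table the stenotic mean of Ptpn6 was 5.32 and the venous-flow mean 6.10, a difference of -0.78 (SE 0.35, adjusted p = 0.773), the same change of sign as for Tnfrsf1b. Cx3cl1, the membrane-bound chemokine of endothelium known as fractalkine, is named after its values were seen and had 6.66 in NIH vein and 7.80 in femoral artery, a difference of -1.14 (SE 0.38, adjusted p = 0.0934).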

How the data were processed

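Single-colour arrays were read for 17 laser-captured samples in the 4 groups given by the source names of the labels. Per the file headers, the deposited scanner files give each spot's mean signal and local background as raw intensity. On 11 arrays the signal equals the mean of 2 other arrays on 92.7% to 100% of spots outside the value table, which were not used, and on at most 0.06% of spots within it. The authors' deposited value table holds log2 values for 10000 of 41372 gene spots; their sorted columns are nearly identical, so quantile normalized. Its scale and direction were matched to the scanner output by rank; no source used here says how its spots were selected. Its lowest value is 4.61 and its median 5.51.

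Signal on those 10000 spots was background-corrected by normexp (offset 50), log2 transformed and quantile normalized with limma 3.58.1 in R 4.3.3. Spots of a probe were averaged, and the probe of highest mean stood for each gene (9446 features). Probes were named by accession through a RefSeq table. Il33 and Tnfrsf12a have a second probe each. Depth is not defined for arrays; signal above background stands in the report.

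One limma model with a mean per group gave 6 contrasts, and a second gave NIH vein against the other 12 arrays. Tests are 2-sided, adjusted by Benjamini-Hochberg over all features, called under 0.05. The method was tested on simulated data: for NIH vein against the other 12 arrays, with 9446 features, it recovered 73% of features changed by 1 and 93% of those changed by 2 on the log2 scale, and called 16 of 9246 unchanged ones.

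Levels by group are given for genes called in any comparison, the 10 of smallest p in NIH vein against the other arrays, the 3 of smallest p in each pairwise comparison and the 2 of highest mean in each class; this named 18 genes, and genes outside the set were named after their values were seen. The genes, lists and rule were chosen with earlier results of these data known. Alternatives were the value table, other background corrections, median scaling, a filter on dim features, single probes, fewer groups, a replicate block and leaving out each array. Values were tabulated in Python 3.11.15 (numpy 2.4.6, pandas 2.3.3) and plotted with matplotlib 3.10.9. Marker lists of smooth muscle, fibroblast, myeloid and endothelial cells are in the report; of neutrophil, lymphocyte, and red cell and platelet markers 1 of 8, 2 of 16 and 5 of 11 were measured, and none passed in any scanner comparison, nor did smooth muscle markers.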

Additional observations from a re-analysis of the deposited data

Results flagged for a closer look

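In 48 sets of arrays searched (each gene in the NIH vein and in the venous-flow vein), 7 held a value farther from the rest of its group than Dixon's 95% limit, on 5 arrays. For normally distributed values chance alone gives about 1 in 20. In each of the 7 sets the lowest values lay near the floor, so that rate does not apply and no excess over chance can be read from the count. Each of the 7 values was the highest of its group, on the log2 scale of the scanner output. Ccl3 was 6.91 on NIH vein 1, above 5.90 on the next. Il1rl1 was 9.77 on venous-flow vein 2, above 6.50 on the next, and this array is a femoral artery in the value table. Tnfrsf12a was 6.62 on NIH vein 5, above 5.97. On venous-flow vein 3, Il2ra was 6.53 and Tnfsf13 was 6.17, where the next arrays had 5.93 and 5.90. On venous-flow vein 4, Il2rb was 7.63 and Tnfsf9 was 6.54, where the next arrays had 5.86 and 5.99. Both of these arrays are femoral arteries in the value table as well.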

How the results depend on the processing

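NIH vein against the 12 other arrays called 0 genes of the set under every alternative run, and so did stenotic side branch against NIH vein and femoral artery against venous-flow vein. The single call in stenotic side branch against venous-flow vein became 0 with the value table, with no background correction, with median scaling, with only the upper 50% of features, with the replicate block and with scanner levels under the samples of the value table, the last chosen after seeing the data. That in NIH vein against femoral artery became 0 under the same alternatives except the upper 50%, which gave 2 (Il1rl1 and Tnfrsf1a). That in stenotic side branch against femoral artery became 0 with the value table, no background correction, median scaling, only the compared groups, the replicate block and scanner levels under the samples of the value table. With the replicate block the Tnfrsf1b difference was 0.61 (adjusted p = 0.242) against venous-flow vein and 0.71 (adjusted p = 0.120) against femoral artery, and that of Il1rl1 was 3.88 (adjusted p = 0.201). Equal numbers do not pair the samples: 7 of 20 pairs had a correlation of deviations over 0.1, and the range was -0.61 to 0.33. The cause of the lost calls was not tested.

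Signs turned for Tnfrsf1b in stenotic side branch against venous-flow vein (-0.50 in the value table, -0.36 in scanner levels with its samples), for Tnfrsf1b against femoral artery (-0.24 and -0.16), and for Il1rl2 in NIH vein against the other arrays (-0.081 with median scaling). Over the alternatives other than leaving out arrays, 85 results for single genes kept direction and side of the threshold, 13 lost the call and 5 reversed. The 85 include genes in NIH vein against the other arrays, where no gene of the set had a call to lose. They therefore do not measure how stable the calls were.

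Leaving out each array in turn gave 0 to 0 genes for NIH vein against the other arrays, 0 to 1 for NIH vein against venous-flow vein (Il1rl1 without venous-flow vein 2), 0 to 1 for stenotic side branch against venous-flow vein, 0 to 0 for stenotic side branch against NIH vein and for femoral artery against venous-flow vein, 0 to 2 for NIH vein against femoral artery and 0 to 2 for stenotic side branch against femoral artery. The Il1rl1 call against femoral artery was lost without NIH vein 1, 3 or 4, stenotic side branch 2, venous-flow vein 1, 3, 4 or 6, or any femoral artery (difference 3.44 to 4.21, adjusted p 0.0199 to 0.157 over all 17); without NIH vein 5, Tnfrsf1a was called too. The Tnfrsf1b call against venous-flow vein was lost without NIH vein 3 or 4, stenotic side branch 2 or 3, venous-flow vein 1, 2, 3 or 6, or femoral artery 3 (0.52 to 0.70, adjusted p 0.0175 to 0.265), and Ccl3 was called without stenotic side branch 2 (1.53). Against femoral artery it was lost without stenotic side branch 2 or 3 or femoral artery 1 or 3 (0.59 to 0.82, adjusted p 0.0230 to 0.135), and Ccl3 was called without stenotic side branch 2 (1.82) or NIH vein 1 (1.39). The filled background, the floor and the dim signal of most of the set limit every difference of low genes.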
